A study of Mus musculus with 6 samples.

Results

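Chromatin remodellers are ATP-driven motors that slide, evict or exchange nucleosomes, histone deacetylases and sirtuins take acetyl groups off histones and other proteins, and bromodomain proteins bind acetylated lysines. These enzymes act in shared complexes, and HDAC1 and HDAC2 are the deacetylases of the CoREST repressor complex in which the histone demethylase LSD1 (gene Kdm1a) works. In germinal centre B cells, which divide fast while they mutate their antibody genes, such complexes set which genes of the resting, memory and plasma cell states stay closed. The genes described here are the 65 rows, of 15861 in the deposited count table, whose symbols begin with Smarc or Ino80, with Arid1 to Arid5, or with Chd, Hdac, Sirt or Brd and a digit. The choice by symbol leaves out 1 gene of these patterns, which is not analysed here. It used no measured value. Of the 65 rows, 62 are genes of the remodeller, ARID, deacetylase, sirtuin or bromodomain families. The other 3 carry such a name only as a neighbour or copy: the antisense-named Chd3os and Ino80dos and the pseudogene Smarca5-ps.

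Polyadenylated RNA of germinal centre B cells, sorted as B220+, GL7+ and FAS+, came from C57BL/6 littermates, 1 mouse per library. The WT group is Lsd1 f/f without Cre (3 libraries). The KO group is Lsd1 f/f with Cgamma-cre+/- (3 libraries). This Cre is known to act in B cells that transcribe a gamma constant-region gene, so cells that have not done so may keep the gene. Both groups carry the floxed alleles, and mice that carry the Cre alone were not analysed here. The labels and design text used here give neither age nor immunisation.

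The WT libraries held 3390805 to 5524852 counts and the KO libraries 12325300 to 14327654, so genotype and depth cannot be told apart. Kdm1a was read at 134, 85.2 and 92.6 TMM-scaled CPM (counts scaled to a common library size) in WT 1, 2 and 3 and at 81.9, 33.0 and 21.8 CPM in KO 1, 2 and 3. Its level in the library labelled KO 1 was close to the lowest WT value. Scaled by library totals it was above that value, at 87.5 CPM against 78.9 in WT 2. The log2 fold change of Kdm1a (KO minus WT) was -1.19 (SE 0.50, edgeR adjusted p = 0.393), so the targeted gene itself did not pass. Results on the KO group below include KO 1 unless it is named as left out. B cell and germinal centre genes such as Cd79a, Cd79b and S1pr2 were abundant in all libraries, and 13 of 14 such markers were detected in each. The sum of the 14, scaled by library totals, ran from 8810 to 12738 CPM in WT and from 7996 to 10032 in KO. Of the 13 tested, 10 had a log2 fold change (KO minus WT) below 0, with a median of -0.21, and none passed the test given below. For Cd79a and Cd79b every KO library lay below every WT library. Of 20 macrophage markers, all 20 were detected in each library and their sum, scaled by library totals, ran in WT from 446 to 3262 CPM and in KO from 329 to 4473. The 10 plasma cell markers, 9 of them detected in each library, had a WT range of 2317 to 3375 CPM and a KO range of 2709 to 3419. The 10 markers of naive and memory B cells summed to 292 to 493 CPM in WT and to 832, 585 and 682 CPM in KO 1, 2 and 3. All 10 had a log2 fold change (KO minus WT) above 0, with a median of 1.39. Of them 1 passed the test given below, Zbtb32 (log2 fold change 1.96, edgeR adjusted p = 0.0348). Of 14 T cell markers, 13 were in the table and 5 were detected in each library, with the sum between 324 and 426 CPM over all libraries. That sum came mostly from Lck and Cd2, while Cd3d and Cd3g were at or near 0 and Cd8a was at 0 in every WT library. In bulk RNA, a smaller number of cells of a type and less RNA per cell cannot be told apart.

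The question of the comparison is whether transcript levels of these chromatin genes differ between Lsd1 f/f mice with and without the Cre. Of the 65 members, 59 passed the filter on low counts, and 0 of the 59 passed the test (edgeR quasi-likelihood test, Benjamini-Hochberg adjustment over all 10926 genes tested, threshold 0.05), beside 0.0824% of all genes tested (0.0732% higher and 0.00915% lower in KO). The smallest adjusted p among the members was 0.205, for Chd7. At an unadjusted p under 0.05, 6 members were higher in KO (Chd2, Chd3, Chd7, Chd9, Sirt4 and Smarca2) and 1 was lower (Smarcd2), which is 10.2% and 1.69% of the members, beside 7.10% and 5.50% of all genes. Every KO library lay above every WT library for 6 members and below for 2, beside 10% and 7.95% of all genes. Without KO 1, it lay above for 6 and below for 3 members, beside 13.0% and 10.8% of all genes. A single member is 1.69% of the 59, so each of these shares lies within a few members of the share of all genes.

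The members' median log2 fold change (KO minus WT) was 0.07, with 38 of 59 above 0, or 64.4% beside 51.3% of all genes, whose median was 0.01. The range ran from -0.58 (Smarcd2) to 1.08 (Chd2). The median depended on the library labelled KO 1: without it, the median was -0.03 and 27 of 58 members were above 0. It was -0.01 without WT 3, and -0.03, with 25 of 59 above 0, once a trend on exon length and GC content was removed. That trend was fitted in each library to the deviations from the mean of all 6 libraries. Its removal therefore also takes out any difference between the groups that follows length or GC content. The median of all genes moved too, to -0.007 without KO 1, -0.01 without WT 3 and -0.04 with the trend removed. Precision was moderate. For 41 of the 59 members the 95% interval of the log2 fold change lay within a 2-fold change in either direction. That is 69.5%, beside 58.3% of all genes tested. For the other members the interval did not exclude a 2-fold change. Intervals are from the model's standard error and the t distribution.

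**Figure D1:**
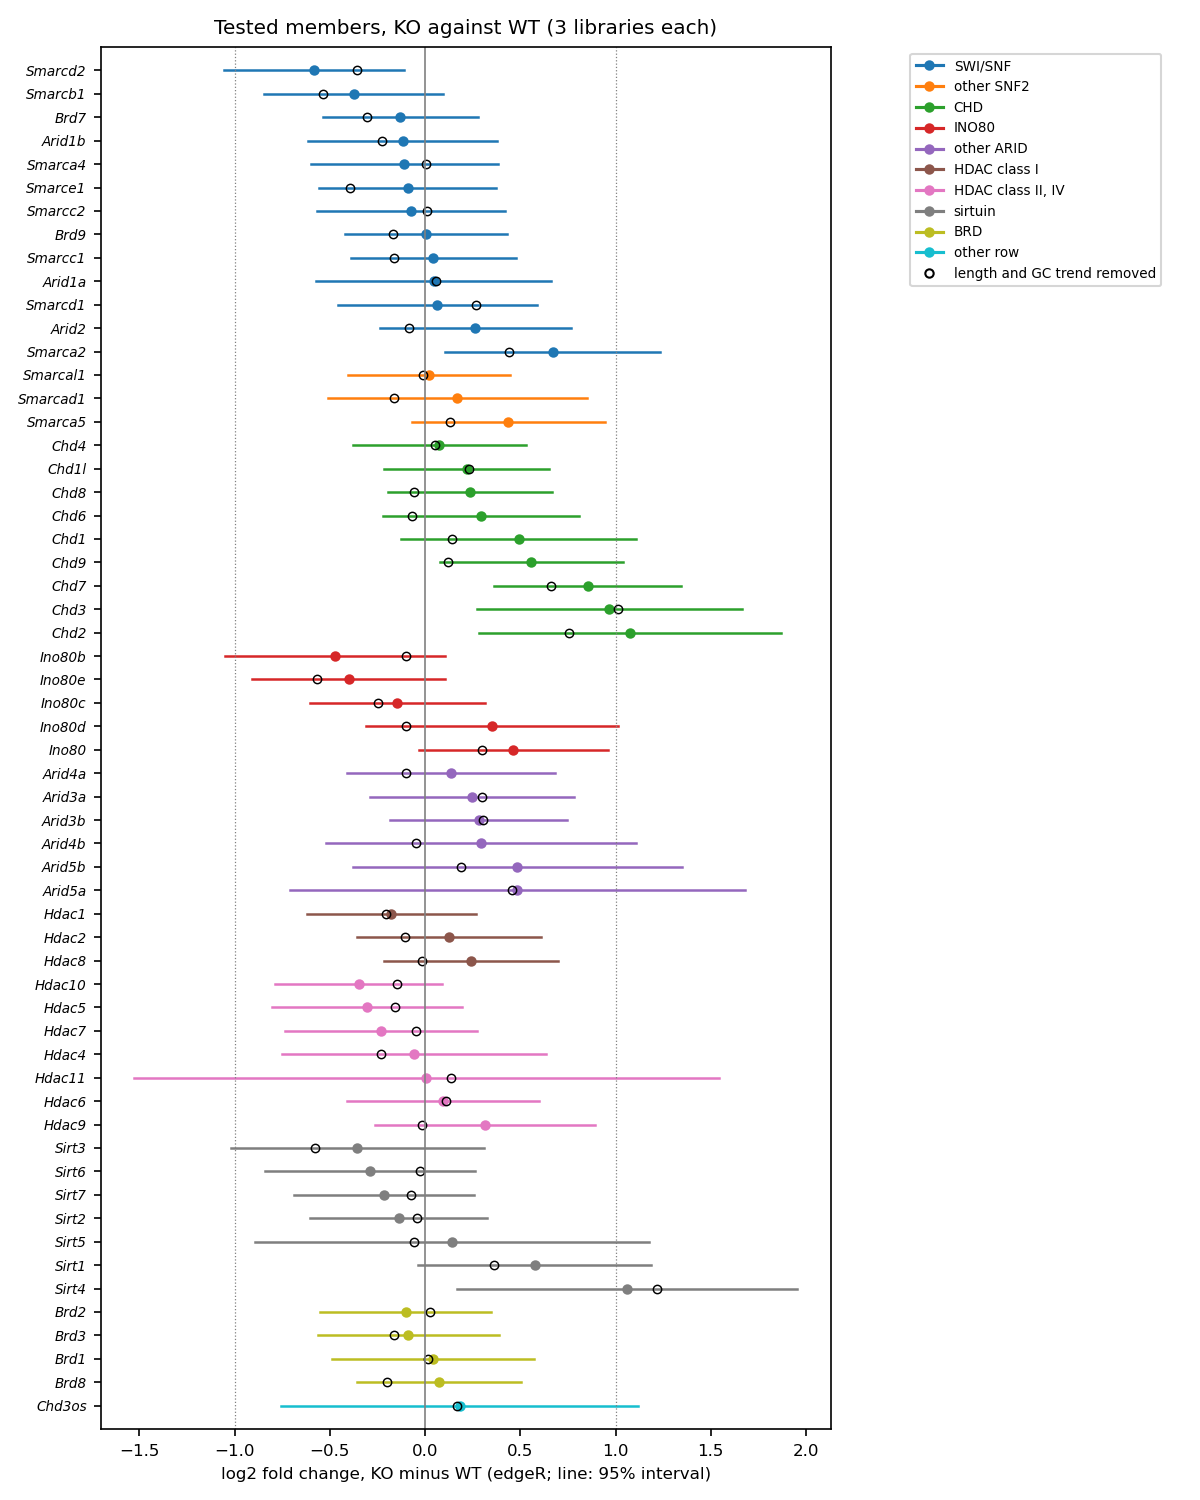
Log2 fold change (x axis) of the tested members, grouped by role; filled points are the edgeR estimates from 3 WT and 3 KO libraries, lines their 95% intervals, open circles the estimates after removal of a length and GC trend, and dotted lines mark a 2-fold change. The 9 CHD genes lie above 0, between 0.08 and 1.08, and most open circles lie to the left of their filled points in that role.

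SWI/SNF complexes carry 1 of a pair of ATPases on a scaffold of shared subunits, and ARID subunits mark the variants: Arid1a and Arid1b the canonical complex, Arid2 and Brd7 the polybromo form, Brd9 the non-canonical form. Levels were compared between genes as CPM per kilobase of annotated exons. Smarca4, the ATPase BRG1, was read at 952, 592 and 662 CPM in WT and at 632, 679 and 734 CPM in KO, so the groups overlapped. Its log2 fold change was -0.11 (SE 0.22, 95% interval -0.60 to 0.38, edgeR adjusted p = 0.893). Per kilobase it stood at 114 ± 29.4 in WT and 105 ± 7.87 in KO (SD, n = 3), against 1.45 ± 0.27 and 2.31 ± 0.54 for Smarca2, its paralogue BRM. Smarca4 thus made up 98.7% ± 0.483 of the pair in WT and 97.8% ± 0.580 in KO.

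Smarca2 (chromosome 19, 26605050 to 26778322, plus strand, mm10) was read at 20.0, 24.8 and 17.1 CPM in WT and at 39.8, 24.7 and 34.5 CPM in KO. KO 1 and KO 3 lay above all WT libraries, and KO 2 lay just under WT 2. The log2 fold change was 0.67 (SE 0.26, edgeR adjusted p = 0.322) and 0.44 with the length and GC trend removed. Its exons overlap slightly with those of 4931403E22Rik on the other strand.

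Smarcd2, a core subunit known for its part in granulocyte development, was the other member of this role with an unadjusted p under 0.05. It lies on chromosome 11 (106263179 to 106272972, minus strand, mm10). WT libraries read 423, 333 and 479 CPM and KO libraries 232, 323 and 270 CPM. Every KO library lay below every WT library, though KO 2 and WT 2 were close to each other. The log2 fold change was -0.58 (SE 0.22, 95% interval -1.05 to -0.11, edgeR adjusted p = 0.313), and -0.36 with the length and GC trend removed. Smarcd2 had the highest per-length level of all members in WT, 115 ± 20.6 CPM per kilobase, within the spread of Smarca4, and 76.7 ± 12.7 in KO, where it came after Smarca4.

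The other SWI/SNF subunits had unadjusted p-values above 0.05. Arid1a was read at 288, 172 and 169 CPM in WT and 272, 149 and 227 CPM in KO (log2 fold change 0.04, 95% interval -0.57 to 0.66). In both groups library 1 was the highest, and the spread within each group exceeded the difference between them. Smarcb1, a core subunit that contacts the nucleosome surface, was read at 197, 129 and 190 CPM in WT and 134, 135 and 128 CPM in KO (log2 fold change -0.37, SE 0.21, edgeR adjusted p = 0.494). WT 2 lay among the KO libraries, and WT 1 and WT 3 lay above them. Over the 13 tested genes of the role, 6 were above 0 and the median was -0.07. That sign is not settled, since the median was 0.10 without WT 1, 0.04 with library totals in place of TMM and 0.06 by limma-voom with quality weights. Smarcd3, the paralogue of Smarcd1 and Smarcd2 best known from heart and muscle, missed the filter with 9 counts over the WT libraries and 42 over the KO libraries. Scaled for depth, its means were 0.715 and 1.03 CPM, with overlap.

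Outside SWI/SNF, Smarca5 is the ATPase of the ISWI complexes, which space nucleosomes. It was read at 90.1, 150 and 117 CPM in WT and at 188, 146 and 151 CPM in KO. KO 2 lay below WT 2, so the groups overlapped (log2 fold change 0.44, SE 0.23, edgeR adjusted p = 0.460; 0.13 with the length and GC trend removed). Its processed copy Smarca5-ps had 1 count over WT and 6 over KO, a mean of 0.104 and 0.142 CPM. Reads of the gene and its copy may not be fully separable. The exons of Smarca5 also overlap Gm45872 on the same strand. The other ISWI ATPase gene, Smarca1, had a single count, in WT 1. Where a gene has 0 counts, up to 3 remain possible from counting error alone, which is 0.586 to 0.935 CPM in a WT library and 0.212 to 0.228 CPM in a KO library. Smarcad1, which acts on chromatin behind the replication fork, and Smarcal1, which re-anneals DNA at stalled forks, had log2 fold changes of 0.17 and 0.02, and overlapped between the groups. With the length and GC trend removed they stood at -0.16 and -0.01.

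The tested CHD genes all lay on 1 side of 0, as did those of the smaller other SNF2 and other ARID roles. CHD proteins pair a chromodomain, which binds histone tails, with a remodelling ATPase, and CHD3, CHD4 and CHD5 are the ATPases of NuRD, the complex that joins remodelling to HDAC1 and HDAC2. All 9 tested genes had log2 fold changes above 0, with a median of 0.49, and none passed the test. All 9 were still above 0 without KO 1, where the median was 0.18, and 8 of 9 were without WT 2, without WT 3 or without KO 3. With the length and GC trend removed 7 were above 0 and the median was 0.14. These are long genes: the median annotated exon length of the 9 was 13786 bases, beside 4476 for all genes tested.

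Chd7 (chromosome 4, 8690406 to 8867659, plus strand), a remodeller of enhancers that is mutated in CHARGE syndrome, was read at 39.4, 36.2 and 29.3 CPM in WT and at 73.1, 52.2 and 64.6 CPM in KO. Every KO library lay above every WT library. The log2 fold change was 0.85 (SE 0.22, 95% interval 0.36 to 1.35, edgeR adjusted p = 0.205), and it ran from 0.66 to 0.98 over 17 alternative analyses, with adjusted p from 0.0731 to 0.913. Chd2 (chromosome 7, 73426638 to 73541830, minus strand), a relative of Chd1 that acts on transcribed genes, was read at 31.3, 23.3 and 13.1 CPM in WT and at 68.0, 32.9 and 42.3 CPM in KO. Here too the groups did not overlap, but KO 2 lay close to WT 1 and KO 1 lay far above the rest. The log2 fold change was 1.08 (SE 0.36, edgeR adjusted p = 0.284), and 0.73 without KO 1. Its exons overlap those of 1810026B05Rik on the same strand and Gm44686 on the other, so its counts are less certain.

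Chd3 (chromosome 11, 69343273 to 69369406, minus strand) was read at 55.9, 31.5 and 33.4 CPM in WT and at 98.6, 48.7 and 88.6 CPM in KO. KO 2 lay below WT 1, so the groups overlapped (log2 fold change 0.97, SE 0.31, edgeR adjusted p = 0.284). Unlike most CHD genes its estimate was no smaller with the length and GC trend removed, at 1.01 on the log2 scale. Chd4, the main NuRD ATPase in lymphocytes, was read at 624, 447 and 453 CPM in WT and at 504, 513 and 588 CPM in KO. Its groups overlapped and its log2 fold change was 0.08 (SE 0.21, 95% interval -0.38 to 0.53). Per kilobase Chd4 stood at 63.3 ± 12.5 in WT and 66.7 ± 5.77 in KO, just after Smarcd2 and Smarca4 in both groups.

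Chd9, the longest member (chromosome 8, 90828352 to 91054516, plus strand), was read at 56.2, 82.9 and 64.8 CPM in WT and at 89.6, 93.1 and 118 CPM in KO. The groups did not overlap (log2 fold change 0.56, SE 0.22, edgeR adjusted p = 0.332), and the estimate was 0.12 with the length and GC trend removed. Gm45641 shares exon sequence with it on the other strand. Chd1, which binds a histone methylation mark of active promoters, was read at 27.6, 36.7 and 41.8 CPM in WT and at 70.5, 36.6 and 42.0 CPM in KO. Only KO 1 stood well above the WT libraries, and without it the log2 fold change was 0.14 instead of 0.49. Chd1l, Chd6 and Chd8 had log2 fold changes between 0.22 and 0.30, Chd1l with every KO library above every WT library. The neighbouring row Chd3os stood at 0.18. Chd5, a gene mainly of the nervous system, missed the filter with 3 counts over WT and 14 over KO. Scaled for depth, its means were 0.218 and 0.346 CPM, with overlap.

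**Figure D2:**
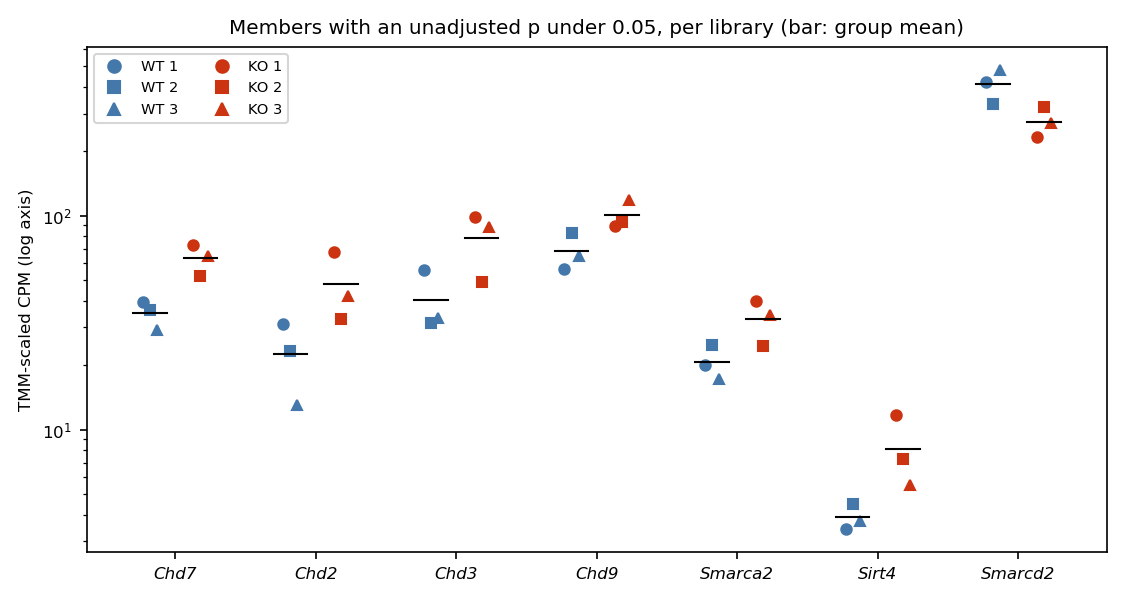
TMM-scaled CPM (log y axis) of the 7 members with an unadjusted p under 0.05, 1 point per library and a bar at each group mean. Chd7, Chd2, Chd9 and Sirt4 have all KO points above all WT points, Smarcd2 has them below, and Chd3 and Smarca2 overlap through KO 2.

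INO80 is a large remodeller that moves nucleosomes and takes part in histone variant exchange, replication and repair. Its ATPase gene Ino80 was read at 52.0, 47.7 and 36.5 CPM in WT and at 69.9, 50.9 and 67.2 CPM in KO. KO 2 lay below WT 1, and the fitted difference was 0.46 log2 units (SE 0.23, edgeR adjusted p = 0.430). The subunit gene Ino80b was read at 37.8, 24.6 and 45.2 CPM in WT and at 24.2, 30.9 and 22.0 CPM in KO, also with overlap. Its log2 fold change was -0.47 (SE 0.26, edgeR adjusted p = 0.483). The 5 genes split with 2 above 0 (Ino80 and Ino80d) and 3 below (Ino80b, Ino80c and Ino80e, the last at -0.40). Ino80b has the shortest annotated exons of the tested members, 1594 bases, and Ino80d one of the longest, 17713, and with the length and GC trend removed they stood at -0.10 and -0.10. Ino80e, whose exons overlap Doc2a and Hirip3 on the other strand, stood at -0.57 there. The lincRNA Ino80dos, whose exons overlap those of Ino80d on the other strand, had 8 counts over WT and 62 over KO. Scaled for depth, these are means of 0.582 and 1.52 CPM, and the groups overlapped.

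The ARID genes outside SWI/SNF bind DNA through AT-rich interaction domains. Arid3a encodes Bright, a factor known to bind near the immunoglobulin heavy chain locus, Arid4a and Arid4b encode partners of the Sin3 deacetylase complex, and Arid5a encodes an RNA-binding stabiliser of inflammatory transcripts. All 6 tested genes had log2 fold changes above 0 (0.14 to 0.49, median 0.29) and none passed. Without KO 1, 4 of the 6 were above 0 and the median was 0.05. In KO 1 the 6 averaged 0.78 log2 units above the WT mean, and in KO 2 and KO 3 0.01 and 0.11, against a range of -0.04 to 0.07 among the WT libraries. Arid5a shows this: it was read at 30.7, 13.9 and 25.6 CPM in WT and at 58.3, 18.9 and 20.5 CPM in KO, so only KO 1 lay above the WT libraries. The log2 fold change, 0.49 over the 6 libraries, was -0.25 when KO 1 was left out. Arid3c had 1 count in all, in WT 2.

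Of the class I deacetylases, Hdac1 and Hdac2 were clearly expressed, and both are subunits of NuRD, Sin3 and CoREST complexes. Hdac1 was read at 162, 218 and 183 CPM in WT and at 168, 181 and 149 CPM in KO (log2 fold change -0.18, SE 0.20, 95% interval -0.62 to 0.27). Hdac2 was read at 63.3, 82.9 and 52.1 CPM in WT and at 78.4, 72.7 and 65.8 CPM in KO (log2 fold change 0.13, 95% interval -0.36 to 0.61). Both genes overlapped between the groups. Per kilobase Hdac1 stood at 54.4 ± 8.17 in WT and Hdac2 at 14.8 ± 3.49. Hdac8, which deacetylates cohesin, was read at 29.7, 29.1 and 26.5 CPM in WT and at 31.4, 38.0 and 31.6 CPM in KO. Its groups did not overlap, but the fitted difference was 0.24 log2 units (SE 0.21, edgeR adjusted p = 0.672), and it was -0.02 with the length and GC trend removed.

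Of the class II deacetylases, the class IIa enzymes act mainly as signal-controlled adaptors of MEF2 factors. Hdac7, a class IIa member, was read at 242, 148 and 189 CPM in WT and at 164, 141 and 188 CPM in KO (log2 fold change -0.23, SE 0.23, edgeR adjusted p = 0.727). It had the highest per-length level of the 7 genes of classes II and IV, 28.6 ± 7.0 CPM per kilobase in WT, and Hdac11 the lowest, 0.318 ± 0.165. Hdac10, a polyamine deacetylase, was read at 66.2, 60.8 and 77.3 CPM in WT and at 49.7, 57.4 and 53.0 CPM in KO. Every KO library lay below every WT library (log2 fold change -0.35, SE 0.20, edgeR adjusted p = 0.496), and the estimate was -0.15 with the length and GC trend removed. The other 5 genes overlapped between the groups, with log2 fold changes from -0.30 (Hdac5) to 0.31 (Hdac9, at -0.01 with the trend removed).

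Sirtuins are deacylases that consume NAD. Sirt1, the main nuclear one, was read at 23.9, 38.7 and 18.4 CPM in WT and at 44.3, 34.0 and 43.2 CPM in KO. KO 2 lay below WT 2, and the fitted difference was 0.58 log2 units (SE 0.28, edgeR adjusted p = 0.424). Sirt4, a mitochondrial sirtuin (chromosome 5, 115478010 to 115484725, minus strand), was read at 3.41, 4.50 and 3.74 CPM in WT and at 11.7, 7.27 and 5.50 CPM in KO. It is a low gene, but the groups did not overlap, with KO 1 the highest. The log2 fold change was 1.06 (SE 0.41, edgeR adjusted p = 0.322), 0.71 without KO 1 and 1.22 with the length and GC trend removed. The mitochondrial Sirt3 and the chromatin-bound Sirt6 and nucleolar Sirt7 were at -0.36, -0.29 and -0.22, each with overlap. The 7 sirtuins had 3 above 0 and a median of -0.14, which ran from -0.27 to -0.03 over the alternatives.

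The BRD genes had the smallest differences of the roles. Brd2 and Brd3 are BET proteins, which carry acetylated chromatin signals to the transcription machinery, Brd1 is a scaffold of histone acetyltransferases and Brd8 a subunit of the TIP60 complex. Brd2 was read at 573, 387 and 445 CPM in WT and at 439, 441 and 430 CPM in KO, so the KO libraries sat close together inside the WT range. Its log2 fold change was -0.10 (95% interval -0.55 to 0.35), and the genes of the role lay between -0.10 and 0.07. The sign for these genes is not settled, since 0 of the 5 were above 0 without KO 1. Per kilobase Brd2 was the highest of the role, at 59.9 ± 12.2 in WT and 55.8 ± 0.750 in KO.

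**Figure D3:**
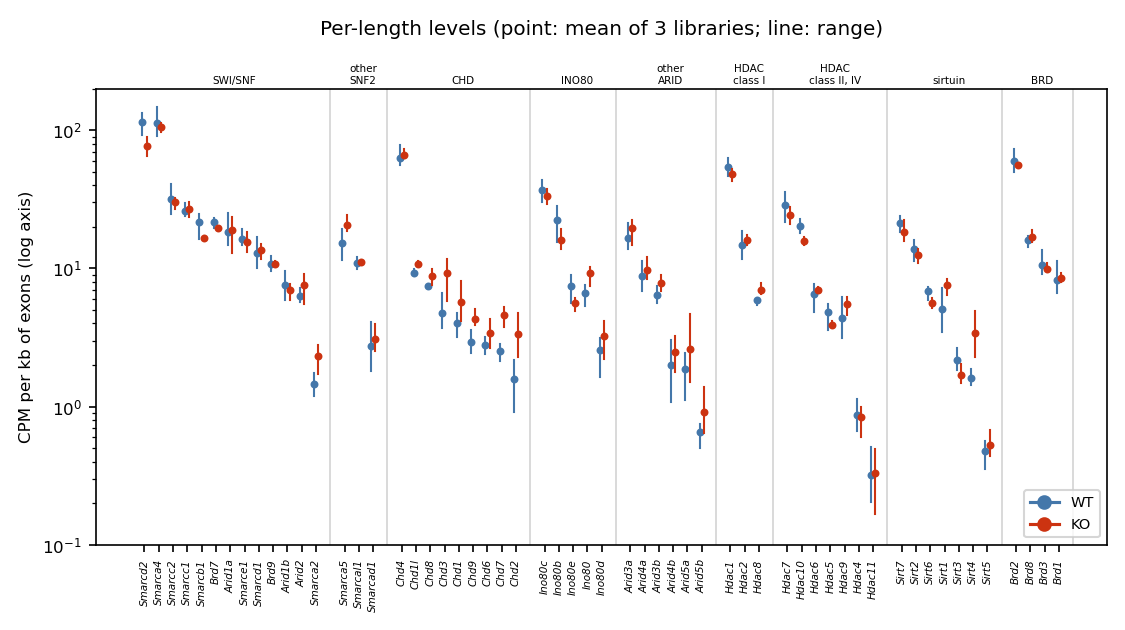
CPM per kilobase of annotated exons (log y axis) of tested members by role, with the mean of 3 libraries as a point and their range as a line, WT in blue and KO in red. Smarcd2, Smarca4, Chd4, Brd2 and Hdac1 are the 5 highest in both groups, and Hdac11 and Sirt5 the lowest.

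The order of levels was similar in both groups. Smarcd2 and Smarca4 were not separable in WT, nor were Chd4, Brd2 and Hdac1, whose means of 63.3, 59.9 and 54.4 CPM per kilobase lay within their SDs of 8.17 to 12.5. Ino80c, a small INO80 subunit, followed at 36.7 ± 6.49. Smarcc2 and Smarcc1, the paired scaffold subunits of SWI/SNF, lay on either side of Hdac7, at 31.8 ± 8.11 and 26.3 ± 2.98. The annotated exon length counts every isoform, so genes with many rarely used exons read low per kilobase.

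For 7 pairs of paralogues of the same complex or family, the share of the first gene in the per-length sum was compared between the groups. Hdac1 made up 76.8%, 77.3% and 82.1% of its sum with Hdac2 in WT and 73.6%, 76.4% and 74.6% in KO, a difference of -3.88 percentage points without overlap. It was -2.23 points without WT 3, the library with the highest share. Chd4 made up 92.2%, 93.7% and 93.5% of its sum with Chd3 in WT and 84.3%, 91.7% and 87.5% in KO, a difference of -5.27 points, also without overlap, and of -3.51 points without KO 1. Both had p = 0.10 in the two-sided exact permutation test, the smallest p that 3 against 3 allows, and 0.35 after Benjamini-Hochberg adjustment over the 7 pairs, so no pair could pass. Smarcd1 held 10.2% ± 2.17 of its sum with Smarcd2 in WT and 15.3% ± 3.65 in KO (exact permutation p = 0.20), with overlap. The shares of Smarca4 with Smarca2, Arid1a with Arid1b and Smarcc1 with Smarcc2 differed by -0.84, 1.96 and 1.57 points, with exact permutation p from 0.20 to 0.50.

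Exon length moved with the differences between the groups across all genes. Over 10881 tested genes with a length, log2 fold change and exon length had a Spearman correlation of 0.337, and over the 59 members of 0.449. These are descriptions across genes that share the same 6 libraries. Split into 4 bins of length, the genes of the shortest bin (to 2825 bases) stood at a median of -0.18 and those of the longest (from 6843 bases) at 0.20. The longest bin held 31 members, with a median of 0.24, and the shortest held 4, with a median of -0.05. In single libraries the correlation of the deviation from the WT mean with length was 0.324 in KO 1, 0.0915 in KO 2 and 0.357 in KO 3, and ran from -0.242 to 0.0923 in WT. The correlation of log2 fold change with GC content was -0.373 over all genes and -0.407 over the members. In single libraries the correlation with GC content was -0.297, -0.429 and -0.347 in KO 1, 2 and 3, but 0.479, -0.728 and 0.365 in WT 1, 2 and 3. WT 2 thus had the opposite sign to WT 1 and WT 3. The deviations of the WT libraries from their own mean cancel for each gene, so opposite signs among them are built into this measure. For length and GC content alike, the WT correlations therefore cannot be ranked against those of the KO libraries. What sets the trend was not tested.

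**Figure D4:**
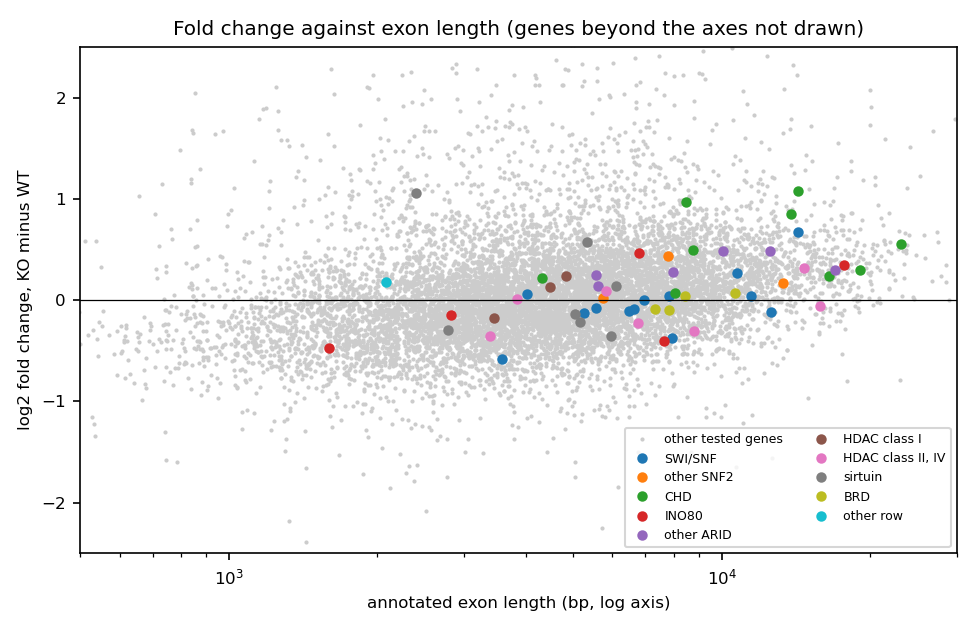
Log2 fold change (y axis) against annotated exon length in bases (log x axis) for all tested genes in grey and the members coloured by role; genes beyond the axes are not drawn. The cloud of grey points tilts upward with length, and Chd9, the longest member with 23148 bases, stands at 0.56, while Hdac4, also long, stands at -0.06.

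Between libraries, the members as a whole moved little. Their mean relative to the WT mean was 0.09, -0.02 and -0.07 log2 units in WT 1, 2 and 3 and 0.27, 0.01 and 0.10 in KO 1, 2 and 3, which places KO 2 between the lowest and highest WT library. The CHD genes averaged 0.76, 0.25 and 0.56 in the KO libraries, against -0.16 to 0.12 in WT. By this mean, the 9 tested plasma cell markers had the same order of KO libraries, at 0.75, -0.02 and 0.55 against -0.09 to 0.12 in WT. Their sum did not follow that order: it was 2709, 3090 and 3419 CPM in KO 1, 2 and 3, lowest in KO 1. The naive and memory B cell markers averaged 1.96, 1.03 and 0.99 in KO against -0.06 to 0.10 in WT. For the BRD genes the WT libraries spanned -0.18 to 0.35 and held all 3 KO values of 0.11, -0.12 and 0.01. The library labelled KO 1, highest for the members, CHD and other ARID genes, also had the highest sum of naive and memory B cell markers, 832 CPM, and its macrophage marker sum of 481 CPM was among the 3 lowest. The part of these markers in the members' values was not tested.

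**Figure D5:**
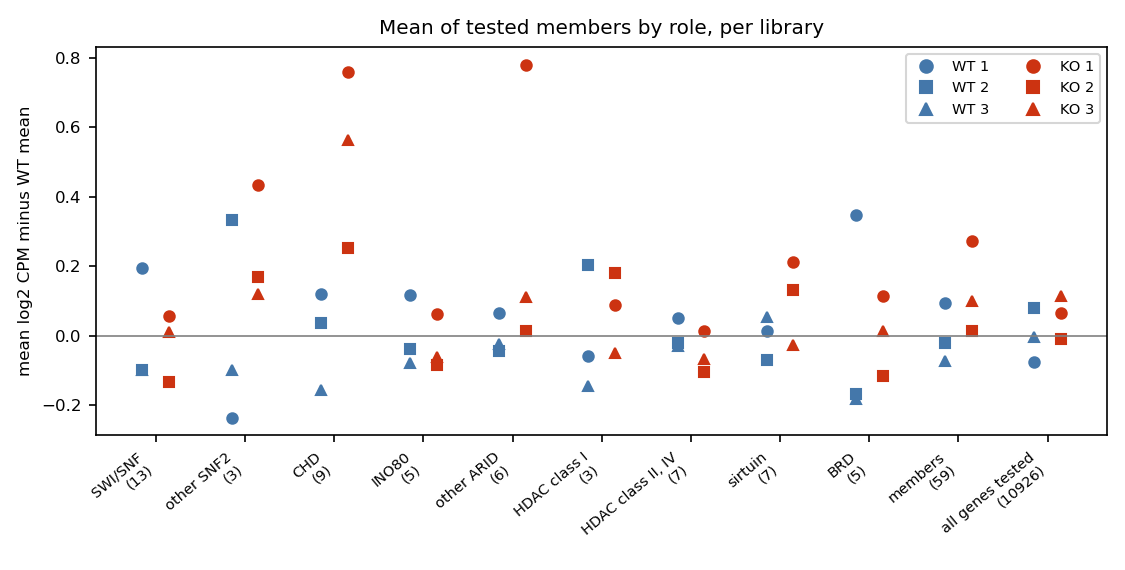
Mean log2 CPM minus the WT mean (y axis) over the tested members of each role, over all 59 and over all genes tested, with 1 point per library and the number of genes in brackets. The CHD genes are the role where all 3 KO points lie above all WT points, at 0.25 to 0.76, and KO 1 alone lifts the other ARID genes to 0.78.

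Genes of the same complexes and families that the symbol patterns do not catch were read beside the members. Of 100 such genes, 93 were tested and 0 passed, with a median log2 fold change of 0.06 and 49 above 0. At an unadjusted p under 0.05, 5 were higher and 9 lower, Kdm1a among the lower, which is 5.38% and 9.68% of the 93, beside 7.10% and 5.50% of all genes. Polybromo, Pbrm1, the subunit that defines a SWI/SNF variant with Arid2 and Brd7, stood at a log2 value of 0.53 (SE 0.22, edgeR adjusted p = 0.349) with every KO library above WT, and Bcl7c at -0.61. With the length and GC trend removed, Pbrm1 stood at 0.20 and Bcl7c at -0.66. The 10 SWI/SNF partners tested, both included, had a median of -0.16 and 2 above 0. That median was -0.04 with library totals in place of TMM and -0.02 by limma-voom with quality weights.

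Of the NuRD partners 7 of 10 were below 0, with a median of -0.14, and of -0.02 with library totals or without WT 1. Rbbp4, the histone-binding subunit of NuRD and Sin3, stood at -0.61 (SE 0.21, edgeR adjusted p = 0.296) and Mta2 at -0.45 (SE 0.19), each with every KO library below every WT library. Of the 11 Sin3 genes, 5 were above 0 and 6 below, with a median of -0.10. That median was 0.01 with library totals, 0.05 by limma-voom with quality weights and -0.002 with the length and GC trend removed. Among the Sin3 genes, Suds3 stood at -0.78 (SE 0.23, edgeR adjusted p = 0.260) and Sin3b at -0.35. In the INO80, SRCAP and TIP60 list 11 of 19 were below 0, among them the SRCAP subunit genes Vps72 (-0.69) and Znhit1 (-0.67). The ISWI partners had 6 of 9 above 0 and a median of 0.22, with Baz2b at 0.69 (SE 0.21, edgeR adjusted p = 0.278) and Chrac1 at -0.41. With the length and GC trend removed the median was -0.02, Baz2b stood at 0.31 and Chrac1 at -0.44.

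Acetyltransferase genes, which write the mark that deacetylases remove, had 7 of 9 above 0 and a median of 0.30, with Kat6b at 0.98 (SE 0.33, edgeR adjusted p = 0.284) and Kat5, the TIP60 enzyme, at -0.47. The median was 0.13 without KO 1. Other bromodomain genes had 11 of 16 above 0 and a median of 0.17. That median was 0.05 without KO 1 and 0.07 with the length and GC trend removed. Among these genes Trim24 stood at 1.0 (SE 0.27, edgeR adjusted p = 0.218) and Trim28, the corepressor of zinc finger proteins, at -0.50. In the LSD1 and CoREST list 7 of 9 were above 0, with a median of 0.07, and of 0.03 without KO 1. Phf21a, the reader of unmethylated histone tails, stood at 0.54 (SE 0.22). The 2 genes below 0 were Hmg20b at -0.55 (SE 0.24) and the targeted Kdm1a at -1.19.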

How the data were processed

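The data are raw read counts for each gene symbol, deposited by the authors in 1 table with a column for each mouse. The submitters' processing notes name CASAVA, STAR 2.5.2, featureCounts 1.5.2 and build mm10. The sources used here give no annotation, strand setting or rule for reads that match several places. Without strand, overlapping genes cannot be separated.

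All genes in the deposited counts were fitted together with edgeR 4.0.16 in R 4.3.3: filterByExpr, TMM scaling, robust glmQLFit, then a two-sided glmQLFTest of KO against WT without covariates and Benjamini-Hochberg adjustment. The filter left 10926 genes. Each SE is the log2 fold change over the root of its F statistic. Exon lengths, GC content and coordinates came from GENCODE vM21 of the same build, matched by symbol for 99.2% of rows and all 65 members. The scripts were tested on simulated counts.

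Alternatives were DESeq2 1.42.0, limma-voom from limma 3.58.1 with and without quality weights, 3 other scalings, 2 other filters, the replicate block, thinning, a length and GC spline offset, and each library left out. Counts of groups without overlap were repeated without KO 1, a choice made after seeing the data.

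The members, lists and naming rule were chosen with earlier results of these data known. Named were 10 best-known members, any that passed the test, the 12 with the smallest p, the 4 largest and 4 smallest fold changes at a mean of at least 5 CPM, up to 2 genes of each partner list, members that missed the filter, and Kdm1a. Some genes, and 1 of the 7 paralogue pairs, are not reported here. Other members were named after their values were seen.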

Additional observations from a re-analysis of the deposited data

How the results depend on the processing

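No member passed the edgeR, DESeq2 or limma test in any of the 17 alternatives. The count of all genes called, 9, was 18 with library totals in place of TMM, 93 with no filter, 127 by DESeq2, 2 by limma-voom, 18 with quality weights, 14 after thinning to the smallest library, 28 with the length and GC trend removed, and 1 to 24 when 1 library was left out. With the replicate block it was 21, and no member passed. The main fit did not take the replicate numbers as pairs. The deviations of same-numbered libraries correlated at 0.341, -0.0525 and 0.443, and those of differently numbered libraries at -0.449 to 0.196. Numbers 1 and 3 thus matched their own number best and number 2 did not, so a pairing is not settled. Scaling by library totals moved the median of all genes from 0.01 to 0.13 and that of the members to 0.19. Kdm1a, at -1.19 over the 6 libraries (edgeR adjusted p = 0.393), ran from -1.93 (without KO 1) to -0.88 when 1 library was left out. It passed in 1 of the 17 alternatives, the fit without KO 1 (edgeR adjusted p = 0.0169). Its largest adjusted p over the edgeR, DESeq2 and limma alternatives was 0.953. Of the 59 members, 19 changed sign with the length and GC trend removed, among them Ino80d (0.35 to -0.10) and Hdac9 (0.31 to -0.01), and 3 to 11 with 1 library left out, among them Arid5a (0.49 to -0.25 without KO 1). The other alternatives turned 0 to 5. Brd2 was at 0.0083 with library totals, 0.025 with the length and GC trend removed and -0.22 to 0.048 with 1 library left out. Smarca4 was at 0.0064 and Hdac2 at -0.10 with the trend removed, and they ran from -0.24 to 0.10 and from -0.022 to 0.32 with 1 library left out, as did Arid1a from -0.16 to 0.32 and Chd4 from -0.016 to 0.23. With 1 library left out, the differences in share ran from -0.161 to 3.84 points for Arid1a with Arid1b and from -0.204 to 3.25 for Smarcc1 with Smarcc2. The cause of these shifts was not tested. The WT depth limits low genes such as Hdac11 most.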
